A study of Mus musculus with 1 sample.

Results

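The transcripts described here encode inhibitors that hold the RAS and ERK pathway in check: 4 dual-specificity phosphatases (Dusp4, Dusp5, Dusp6 and Dusp7), 3 Sprouty proteins (Spry1, Spry2 and Spry4) and 3 Spred proteins (Spred1, Spred2 and Spred3). These 10 genes were taken by symbol from the 18193 genes that the array measured with probe sets naming 1 gene each, and all 27 of their probe sets were used. The RNA came from KR Primary, a cultured lung cancer cell line derived from a KR tumor of the B6/J mouse strain, grown in serum-containing RPMI1640 and harvested shortly before confluence. The labels do not say what KR stands for, the series title speaks of cell lines from kras tumors, and no agent added to this culture is labelled. There was 1 sample on 1 Affymetrix array, so no condition was compared, the values carry no replicate error and no p-value, and every statement concerns this culture alone.

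Growth factor receptors activate RAS, which starts the RAF, MEK and ERK kinase cascade, and active ERK switches on genes whose products then dampen the cascade. The phosphatases of this set remove activating phosphates from ERK, in the nucleus (Dusp4 and Dusp5) or the cytoplasm (Dusp6 and Dusp7). Sprouty proteins act upstream, between the receptor and RAF, and Spred proteins bring neurofibromin, the RAS inhibitor encoded by Nf1, to the membrane. Transcripts of several of these genes serve as readouts of ERK output in tumors, but a transcript level measures neither phosphatase activity nor ERK phosphorylation.

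Many of these genes are known as targets of factors that ERK acts on, so their promoters were searched for the motifs of such factors. RefSeq-based promoter windows (GRCm38.p6, 250 bases before and 50 after the start of the gene) were at hand for 8 of the 10 genes, Dusp4 and Spry4 not among them. The motifs were the CArG box bound by SRF, CGGAAG for ETS factors, TGANTCA for AP-1 and TGACGTCA for CREB-like factors, all on both strands. A CArG box was present in 1.63% of the 32817 promoters in the table and in 1 member promoter, that of Dusp5, which held 2 of them end to end. CGGAAG was present in 16.9% of promoters and in 3 member promoters, those of Dusp6, Spred1 and Spred2. No member promoter held the AP-1 letters (7.81% of promoters) or the CREB-like letters (1.79%) in this window. The windows that hold a motif before the start site are printed to show where the letters lie. Capitals mark the motif, CTTCCG is CGGAAG read on the opposite strand, and a match is a description and not a binding site.
Dusp5, chr19:53529043-53529102, + strand, both CArG boxes: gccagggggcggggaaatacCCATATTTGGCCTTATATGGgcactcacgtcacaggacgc
Dusp6, chr10:99263154-99263189, + strand, ETS motif: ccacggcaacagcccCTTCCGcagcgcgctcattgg
Spred1, chr2:117121039-117121070, + strand, ETS motif: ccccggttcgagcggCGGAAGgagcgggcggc
Spred2, chr11:19924384-19924419, + strand, ETS motif: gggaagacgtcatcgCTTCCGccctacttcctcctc

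The boxes of Dusp5 lay 82 to 73 and 72 to 63 bases before the start, with no base between them. The ETS letters lay 62 to 57 bases before the start in Dusp6, 17 to 12 in Spred1 and 43 to 38 in Spred2. Spred1 held the same letters once more, on the opposite strand, just after its start. The member promoters were also rich in G and C, with a median of 63.5% against 52.7% over all promoters, and in CpG, with a median of 28 CpG per 300-base window against 7. Dusp7 had the highest values, 78.7% G and C and 41 CpG, and Spred3 the lowest, 55.0% and 8.

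Each probe set combines several short probes for 1 transcript into a signal in arbitrary fluorescence units, and how brightly those probes bind enters its value. Signals of different genes therefore do not rank their RNA amounts, and each signal was set against a background measured on the same array. The background came from 112 genes of smell, taste and hair, that is keratin-associated proteins and olfactory, vomeronasal and bitter taste receptors, whose 126 probe sets had a median of 6.41. Its 95th percentile, 16.8, is called the background line, and its highest value, 60.6, the upper limit. All 8 epithelial markers, among them Cdh1 and Epcam, exceeded the upper limit. None of the 6 lung epithelial markers did, with Nkx2-1 at 7.66, nor any of 6 fibroblast and 4 endothelial markers, and of 5 measured leukocyte markers only Cd68 did, at 69.8, while Ptprc read at most 11.5. At the lower background line, 2 lung epithelial, 1 fibroblast, 2 endothelial and 1 leukocyte markers passed.

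All 10 inhibitor genes exceeded the background line with 1 probe set or more, against 63.3% of all measured genes. At the upper limit 9 of 10 passed, against 47.5% of all genes, and the exception was Spry4. Since a gene with many probe sets passes more easily, the 5 members with a single probe set (Dusp4, Dusp5, Dusp6, Spry1 and Spred3) were counted apart. All 5 exceeded both thresholds. Over all genes with 1 probe set, 48.4% exceeded the line and 32.6% the upper limit. The 5 members with several probe sets all exceeded the line and 4 of them the upper limit, where 78.6% and 62.8% of such genes did. Counted by probe set, 23 of 27 (85.2%) exceeded the line and 18 (66.7%) the upper limit, against 60.9% and 41.1% of all one-gene probe sets. The median member probe set read 92.2, against 32.1 over all one-gene probe sets. The RNA was extracted from the whole culture, so fewer cells with a transcript and less of it per cell cannot be told apart. The genes were not tested as a list, and genes used by most cell types pass these thresholds as well.

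**Figure D1:**
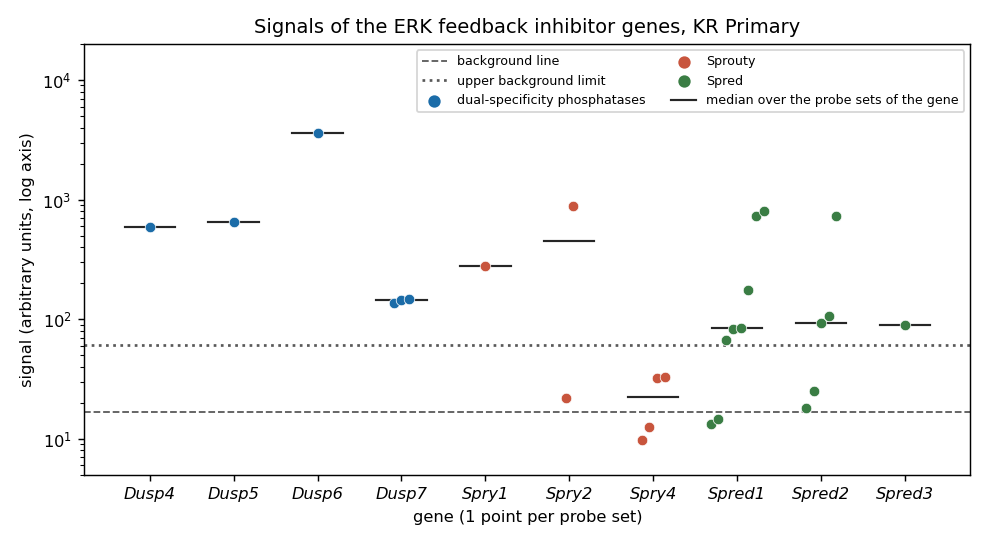
Signal (arbitrary units, log axis) of each of the 27 probe sets, by gene; points are probe sets, short bars the median over the probe sets of a gene, and the dashed and dotted lines the background line (16.8) and the upper limit (60.6). All 6 phosphatase probe sets lie above the upper limit, all 4 of Spry4 lie below it, and Spry2, Spred1 and Spred2 have probe sets on both sides of it.

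**Figure D2:**
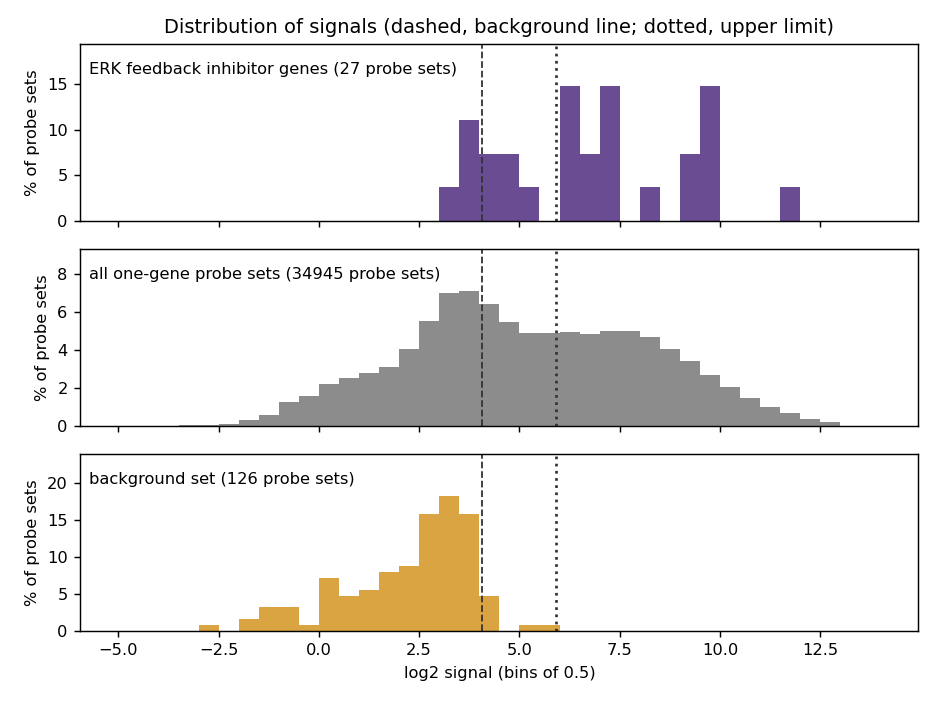
Share of probe sets (percent) by log2 signal in bins of 0.5, for the 27 member probe sets, all 34945 one-gene probe sets and the 126 background probe sets; dashed and dotted lines are the background line (4.07) and the upper limit (5.92) on the log2 scale. The member values lie mostly to the right of the upper limit, and 9 of 27 lie to its left.

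Of the phosphatases, 4 of 4 genes and 6 of 6 probe sets were above the upper limit, against 47.5% of all genes and 41.1% of all one-gene probe sets. Dusp6, the cytoplasmic ERK phosphatase also named MKP-3, gave 3629.7 on its single probe set, 216 times the background line. That signal exceeded 99.2% of all one-gene probe sets. Dusp5, a nuclear phosphatase that binds ERK, gave 647, or 38.5 times the line. Dusp4, a nuclear phosphatase that acts on ERK and on JNK kinases, gave 587, or 34.9 times the line. Each of these 3 genes rests on 1 probe set, so no second reading on the array bears on its value.

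Dusp7, the closest relative of Dusp6 in the set and likewise cytoplasmic, read 146, 144 and 137 on its 3 probe sets, 8.14 to 8.71 times the line. Among the 2366 genes with 3 probe sets, 46.1% had a lower highest probe set than Dusp7 and 70.5% a lower median. The probe sets of Dusp7 agreed within 1.07-fold. Ranges were compared over genes with as many probe sets and at least 1 of them above the upper limit, after setting signals under the background line to the line. Restricting the comparison to these genes was decided after the data were seen. By that measure 99.9% of 1591 genes with 3 probe sets had a range at least as wide as Dusp7. Of these probe sets, 1 has a name ending in _x_at, meaning that its probes may also match other transcripts, and 2 end in _a_at, meaning that they match several transcripts of the gene.

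The Sprouty genes were divided. Of their 7 probe sets, 5 (71.4%) exceeded the line and 2 (28.6%) the upper limit, against 60.9% and 41.1% of all one-gene probe sets. The median Sprouty probe set read 32.0, against 32.1 over all one-gene probe sets. Spry1, a membrane-associated inhibitor of receptor tyrosine kinase signalling, gave 276 on its only probe set, 16.4 times the background line. Spry2, which binds the adaptor Grb2 and the ubiquitin ligase Cbl, gave 886 on one probe set and 21.8 on the other. The first is 52.7 times the line and the second 1.30 times, so that they differed 40.6-fold. Measured in the same way, 4.54% of 2575 genes with 2 probe sets had a range at least as wide. The dim probe set of Spry2 was designed on a RefSeq mRNA record that is listed for the gene, the bright one on another sequence record.

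Spry4, an inhibitor that acts on RAF activation, gave the lowest readings of the set relative to background. Its 4 probe sets read 32.7, 32.0, 12.6 and 9.79. The first pair lay at 1.94 and 1.90 times the background line, under the upper limit, and the second pair below the line. Among the 1093 genes with 4 probe sets, 71.8% had at least 1 above the upper limit. The signal of Spry4 was within the range of the background set, whose brightest probe sets read 60.6 and 42.2, and is therefore not distinguished from background at the upper limit.

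Spred1, whose loss in humans causes Legius syndrome, passed the upper limit on 6 of its 8 probe sets. They read 798, 731, 176, 84.9, 82.6 and 66.9, and the remaining pair, below the background line, 14.5 and 13.2. The highest was 47.5 times the line and the median of the 8 was 4.98 times. Among the 33 genes with 8 probe sets, 78.8% had at least 1 above the upper limit, and for 57.6% the highest probe set read lower than that of Spred1. Because the lowest pair was not above background, the range was at least 47.5-fold, taken against the line, and 38.5% of 26 comparable genes with 8 probe sets had one at least as wide. Of the 8, 3 have names ending in _s_at, given to probes shared by several transcripts, and 1 in _x_at, and the highest value came from a probe set with neither ending.

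Spred2, another family member that recruits neurofibromin, had all 5 probe sets over the line and 3 over the upper limit. They read 735, 107, 92.2, 25.1 and 18.1, from 43.7 to 1.08 times the line, a 40.6-fold range that 20.6% of 379 comparable genes with 5 probe sets equalled or exceeded. Among the 463 genes with 5 probe sets, 81.9% had at least 1 above the upper limit. The lowest probe set of Spred2 was, as in Spry2, the one designed on a listed RefSeq mRNA record. Spred3, the family member that in mice lacks a working KIT-binding domain, gave 90.1 on its single probe set and thus 5.36 times the line. For 71.3% of the 9183 genes with 1 probe set the signal was lower than that of Spred3.

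**Figure D3:**
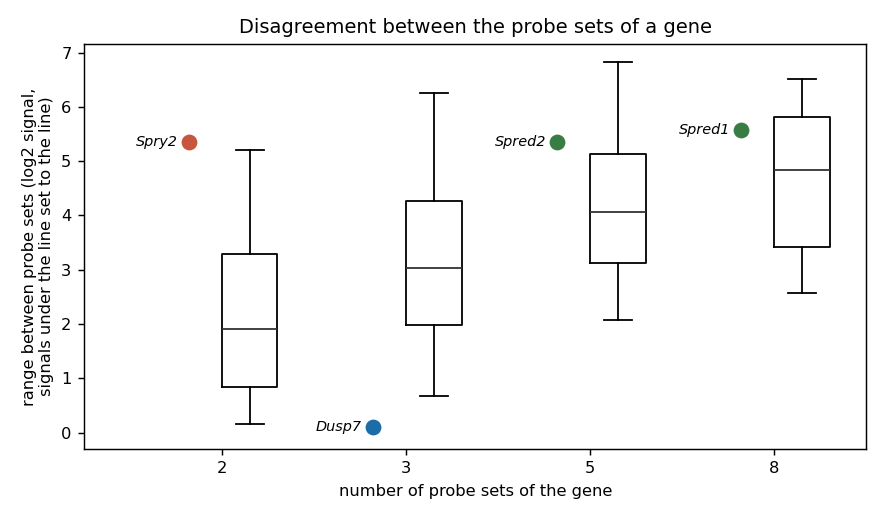
Range between the highest and lowest probe set (log2 signal, with signals under the background line set to the line) against the number of probe sets, for the 4 members with several probe sets and at least 1 above the upper limit (points) and, to the right of each, all such genes with as many (boxes show quartiles and median, whiskers the 5th to 95th percentile). Dusp7 (0.097) lies below the lower whisker, Spry2 (5.34) just above the upper whisker, Spred2 (5.34) just above its box and Spred1 (5.57) inside it.

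The choice of probe set therefore mattered for 3 genes. Taken by the highest probe set, Spry2, Spred1 and Spred2 read 886, 798 and 735; taken at the median of the log2 signals, they read 139, 83.7 and 92.2. For Spry2, with a pair of probe sets, that is the midpoint on the log2 scale and not the reading of a probe set, and the midpoint of the linear signals was 454. By each of these readings all 3 stayed above the upper limit. With signals under the line set to the line, the SD between probe sets on the log2 scale was 3.78 in Spry2, 2.12 in Spred1, 2.11 in Spred2 and 0.050 in Dusp7, against a median of 1.56 over the 5656 genes with 2 or more probe sets and at least 1 above the upper limit. In 2 of the 5 members with several probe sets, Spry4 and Spred1, probe sets fell on both sides of the background line, as they did in 32.9% of the 9010 genes with several.

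Close relatives outside the set were read in the same way. Dusp9, another cytoplasmic ERK phosphatase, which mice need for placental development, passed the upper limit on all 3 probe sets at 229, 224 and 141. Spry3, the remaining Sprouty gene, had a single probe set, which read 0.817, below the background line. Of the 6 other MAP kinase phosphatases, all passed the line and 4 the upper limit. Of all measured genes 63.3% and 47.5% did, and of genes with several probe sets 78.6% and 62.8%. Among the 6, Dusp1, the immediate early phosphatase, was highest at 731 and Dusp10, a phosphatase of p38 and JNK kinases, next, with readings of 443 and 13.3. The lowest were Dusp8, with readings of 47.4, 12.1 and 3.85, the last pair below the line, and Dusp2 at 22.3. Dusp2, a nuclear phosphatase that also acts on ERK, thus stayed under the upper limit that Dusp4, Dusp5, Dusp6, Dusp7 and Dusp9 exceeded on each of their probe sets.

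Genes upstream and alongside the inhibitors were counted in the same way, and their counts stand beside the 63.3% (line) and 47.5% (upper limit) of all measured genes, or the 78.6% and 62.8% of genes with several probe sets. All 5 analysed genes of the RAS, RAF, MEK and ERK core passed the upper limit with 1 probe set or more. They ran from the kinase gene Map2k1 at 1494 and Nras at 732 to Araf at 204 and Braf at 185. Araf passed on 3 of its 5 probe sets and Braf on 4 of 9, with a Braf median of 59.3, under the upper limit. The other 5 listed core genes were not analysed here. Of 11 analysed partners of Sprouty and Spred proteins, 11 exceeded the line and 10 the upper limit. The highest were Cav1, encoding caveolin 1, at 1061 and the phosphatase gene Ptpn11, which read 616, 129 and 18.4. The lowest were Tesk1 at 71.1 and Nf1 at 38.0. Nf1, whose protein the Spred proteins carry to the membrane, read 38.0, 17.6 and 7.69 on its 3 probe sets, none above the upper limit. The Spred genes exceeded that limit on some or all probe sets: 6 of 8 in Spred1, 3 of 5 in Spred2 and the only 1 of Spred3. Of 13 other negative regulators, 11 passed the line and 10 the upper limit. Pebp1, which encodes a RAF inhibitor protein, was highest at 3736, followed by the phosphatase subunit gene Ppp2ca at 2686. The other readings of Ppp2ca were 393 and 16.2, the latter below the line. Rasal1, a RAS GTPase-activating protein gene, and Spry3 were lowest at 1.92 and 0.817.

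The remaining comparison was with other genes that ERK signalling is known to induce, where 11 of 11 analysed genes exceeded the line and 10 the upper limit, to be read beside the shares of all genes given for the preceding lists. Ccnd1, encoding cyclin D1, reached 4339.9 and Phlda1 3504. The lowest were the ETS factor genes Etv5 and Etv4. Etv5 read 72.6, 28.1 and 22.5 and Etv4 51.1 and 25.9, so that 1 of these 5 probe sets exceeded the upper limit. Within the readouts of this pathway, Dusp6, Ccnd1 and Phlda1 thus stood far above background, whereas Spry4 and Etv4 stood under the upper limit and Etv5 just over it. With 1 sample, whether these genes vary together could not be examined. The median gene level was 617 in the inhibitor genes, 919 in the other ERK output genes, 554 in the core, 342 in the partners, 305 in the other negative regulators, 257 in the other MAP kinase phosphatases and 48.3 over all measured genes. These medians contain genes with different numbers of probe sets and are given as a description.

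**Figure D4:**
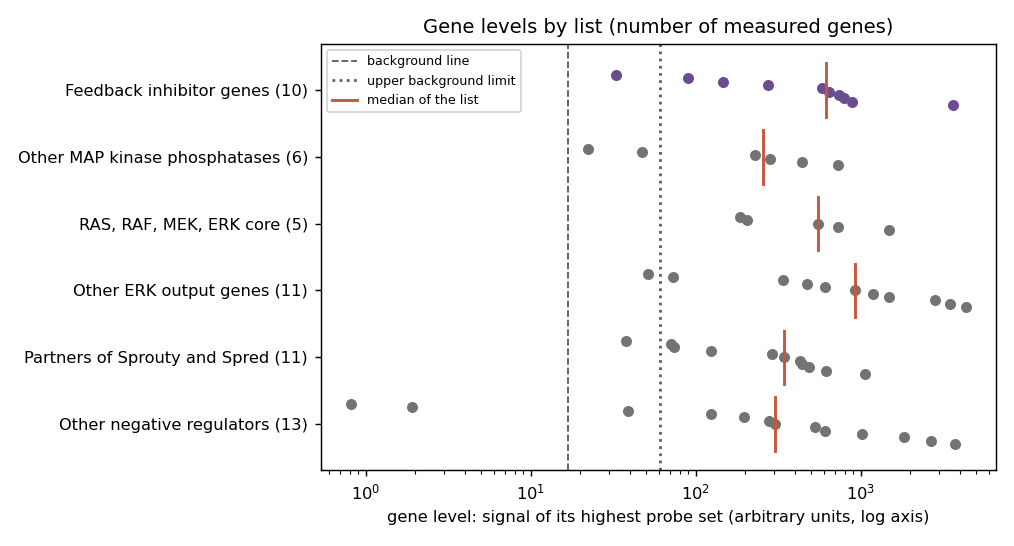
Gene levels (signal of the highest probe set, arbitrary units, log axis) for the inhibitor genes and the 5 other pathway lists; each point is a gene, red bars are list medians, and the dashed and dotted lines are the background line and the upper limit. The inhibitor genes run from 32.7 (Spry4) to 3629.7 (Dusp6) with a median of 617, and 2 genes, Rasal1 and Spry3, lie below the background line.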

How the data were processed

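The deposited values are linear intensities, already summarised to 1 value per probe set. The submitters' processing notes name Affymetrix Expression Console, and its algorithm, scaling and correction for background were not given in the sources used here. Probe sets were named from the platform annotation, and symbols were updated through gene IDs with a RefSeq table (GRCm38.p6) for 34741 of 34945 one-gene probe sets. No probe set naming several genes named a member. The line was the 95th percentile of the background set and a gene's level its highest probe set. The array is 1 sample, so read depth does not apply and no test was possible. The only spread at hand was that between probe sets of a gene. That spread does not measure the precision of a signal, and the 5 members with a single probe set have none. Every member was named with each probe set, and in each other list the 2 highest and 2 lowest genes plus Dusp9 and Spry3. The cell type markers Cdh1, Epcam, Nkx2-1, Cd68 and Ptprc were named outside that rule, after their values were seen. Members and lists were chosen with earlier results of these data known, and the promoter motifs after the signals were seen. Alternatives varied the line, the background genes, which probe sets were admitted and how they were combined. For ranges and pairs, signals under the line were set to the line, and using these values with genes above the upper limit as their comparison, like giving the log2 median back as a signal, was decided after the data were seen. Python 3.11.15 was used with pandas 2.3.3, numpy 2.4.6 and matplotlib 3.10.9.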

Additional observations from a re-analysis of the deposited data

How the results depend on the processing

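Of 20 alternatives tried for the counts and summaries, 2 could not change a value here, because no probe set naming several genes names a member and because the median spread was that of Spred2, which has no probe set under the line. Of the other 18, 17 left the value within 1.5-fold of the reported count, exactly 1.5-fold included, or within the spread between probe sets. Among those 17 are further settings that could not lower a count or move the median level, given below. The exception was the median log2 level of the 10 genes, which was 9.27 by the highest probe set and 7.14 by the median of the log2 signals, since that choice lowers genes with unequal probe sets. All 10 genes stayed above the line by the median probe set. They also did with the line at the 90th percentile (14.1) or without keratin-associated genes (15.1). Both lie below the reported line, so the count could not fall. For the same reason the count of 23 probe sets could not fall at these lines, and it read 24 and 23. The upper limit count of 9 could not fall at the second highest background value, 42.2, which lies below 60.6. Leaving out _x_at and _s_at probe sets also kept all 10. Only in Dusp7 did the highest probe set have such an ending, and its next read 144, so the gene counts and the median level could not move. At the 99th percentile (36.9) 9 passed, Spry4 being lost. At the median plus 3 scaled median absolute deviations of the background (94.6) 8 did, Spry4 and Spred3 being lost. The share of all genes above these higher lines was not computed. When every probe set had to pass, 8 genes exceeded the line and 6 the upper limit. Over all genes the share that did so depended on the number of probe sets. For the numbers found among the members it was 21.2% to 49.1% at the line and 8.64% to 32.6% at the upper limit. The fall from 9 to 6 at the upper limit is exactly 1.5-fold and was counted among the 17. Pathway list genes above the line numbered 44 of 46, and 43 and 42 under the 99th percentile and the median probe set. No paired analysis was possible because there was 1 sample. Spry4 and Nf1 exceeded the line but not the upper limit, so that on 1 array their signals lie within the range of the background set.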

Other observations

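Probe sets designed on the same sequence record read alike in some cases and not in others. There were 7 such pairs among the members, 5 of them in Spred1, and in 5 of the 7 both probe sets were above the background line. The Dusp7 pair read 144 and 137, a 1.05-fold difference. In Spred1, 1 record gave 798, 731 and 84.9, so that its dimmest probe set was 9.40-fold below its brightest, and another gave 82.6 and 66.9. One further Spred1 record gave 176 and a reading below the line, a difference of at least 10.5-fold when taken against the line. The Spry4 pair was below the line on both probe sets and gives no comparison. The positions of the probes along the transcripts were not examined.

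Spry2 and Spred2 each had exactly 1 probe set designed on a RefSeq mRNA record, and in both it was the dimmest, at 21.8 and 18.1. Over the array this was the less frequent case: among genes with 2 probe sets of which 1 had a RefSeq record, that probe set was the lower in 39.5% of 1009 genes, and among those with 5 it was the lowest in 12.5% of 80 genes. The single probe sets of Dusp6 and Spry1, which also have RefSeq records, read 3629.7 and 276. A reading of Spry2 or Spred2 from the RefSeq probe set alone would place either gene under the upper limit, at 1.30 and 1.08 times the background line.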
